A study of Mus musculus with 3 samples.

Results

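The open chromatin of callosal projection neurons was described here as a set of 102644 genomic regions in which both libraries of these neurons had an ATAC-seq peak. A peak was kept when a peak of library CPN 1 overlapped a peak of library CPN 2 by at least 1 bp, and kept peaks that overlapped were joined into 1 region. The 3 peak lists of the series merged into 204313 regions. The callosal set covered 51.3 Mb and was described whether or not the third library had a peak there.

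Callosal projection neurons (CPN) are excitatory neurons of the cerebral cortex that send their axon across the corpus callosum to the other hemisphere. The cells were labelled as coming from mouse brain, sorted by FACS, 50000 cells for each biological replicate, and 2 libraries were made from them. Corticospinal motor neurons (CSMN), which send their axon to the spinal cord, gave 1 library by the same protocol. No treatment or genetic change was named in the labels, and the sources used here give no age, strain, sex or number of animals behind a sort. In ATAC-seq a transposase cuts and tags accessible DNA, so that reads pile up at promoters and at distal elements such as enhancers. A peak therefore marks accessible DNA in the sorted cells, and it does not show that a gene is transcribed. Cux1, Cux2, Lhx2 and Pou3f2, the genes used here as callosal markers, encode homeodomain transcription factors of upper-layer cortical neurons.

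The promoters printed next show what the starts of genes with a callosal region look like, beside one start with none. Each line gives the 250 bases upstream of a transcription start, 5′ to 3′ on the gene's strand, from RefSeq (GRCm38.p6, the build named mm10), with CpG dinucleotides in capitals. The 5 callosal genes shown come from the list of upper-layer transcription factors. They have a listed start at the outer end of the gene, or 10 bases inside it for Lhx2. The listed starts of Cux1 and Cux2 lie deeper inside their genes. Cited2, of the same list, has a start at its outer end too and is not printed. Its upstream stretch held 26 CpGs and lay inside a callosal region. The last is the liver gene Alb, which encodes serum albumin.
Lhx2 (chr2:38339031-38339280, + strand): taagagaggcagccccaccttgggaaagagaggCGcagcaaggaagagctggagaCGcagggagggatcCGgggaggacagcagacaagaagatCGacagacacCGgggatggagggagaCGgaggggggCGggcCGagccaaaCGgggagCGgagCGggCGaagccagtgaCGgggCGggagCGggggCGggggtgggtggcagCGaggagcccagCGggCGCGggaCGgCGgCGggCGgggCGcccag
Pou3f2 (chr4:22488367-22488616, - strand): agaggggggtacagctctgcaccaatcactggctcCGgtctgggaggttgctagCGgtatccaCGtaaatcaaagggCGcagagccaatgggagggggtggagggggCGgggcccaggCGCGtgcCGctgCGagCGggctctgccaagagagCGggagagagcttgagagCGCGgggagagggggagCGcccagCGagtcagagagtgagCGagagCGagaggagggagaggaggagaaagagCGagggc
Pou3f3 (chr1:42695518-42695767, + strand): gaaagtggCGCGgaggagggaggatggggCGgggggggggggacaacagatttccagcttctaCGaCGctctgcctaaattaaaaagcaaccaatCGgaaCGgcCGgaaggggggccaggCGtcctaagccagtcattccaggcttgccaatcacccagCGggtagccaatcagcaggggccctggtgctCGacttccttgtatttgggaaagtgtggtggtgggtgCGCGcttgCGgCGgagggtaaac
Rorb (chr19:19111197-19111446, - strand): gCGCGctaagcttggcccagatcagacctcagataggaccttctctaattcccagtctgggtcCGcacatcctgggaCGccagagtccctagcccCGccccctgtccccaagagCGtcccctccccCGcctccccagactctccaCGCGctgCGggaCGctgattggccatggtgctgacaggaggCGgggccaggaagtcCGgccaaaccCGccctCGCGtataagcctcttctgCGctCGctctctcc
Lmo4 (chr3:144205256-144205505, - strand): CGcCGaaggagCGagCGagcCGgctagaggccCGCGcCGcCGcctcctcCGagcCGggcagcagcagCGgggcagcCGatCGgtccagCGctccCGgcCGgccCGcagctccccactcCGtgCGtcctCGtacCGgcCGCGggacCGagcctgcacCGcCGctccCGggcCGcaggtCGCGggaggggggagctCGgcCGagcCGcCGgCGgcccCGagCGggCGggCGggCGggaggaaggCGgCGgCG
Alb (chr5:90460620-90460869, + strand): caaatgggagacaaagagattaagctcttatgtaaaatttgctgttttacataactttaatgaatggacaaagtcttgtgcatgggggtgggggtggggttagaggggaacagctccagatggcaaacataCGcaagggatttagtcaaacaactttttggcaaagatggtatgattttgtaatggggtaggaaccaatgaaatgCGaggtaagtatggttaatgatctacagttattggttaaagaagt
The stretch upstream of Lmo4 held 44 CpGs, that of Lhx2 25, those of Pou3f2 and Rorb 18 each and that of Pou3f3 15. The stretch upstream of Alb held 2. A callosal region covered the whole 300-base promoter window (250 bases before the start and 50 after) of these 5 genes, and none touched that of Alb.

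Read totals per library are not given in the sources used here, and the length of the peak lists stands in for depth. CPN 1 had 134018 peaks, CPN 2 had 158779 and CSMN had 98067. Of the CPN 1 peaks 102926 (76.8%) were kept in the callosal set, and of the CPN 2 peaks 110643 (69.7%). The fold is the enrichment at a peak's summit over the caller's background, as the authors deposited it, and it describes and ranks peaks within a list. Kept peaks were the stronger ones of each list. Their median fold was 4.63 in CPN 1 and 4.6 in CPN 2, against 2.66 and 2.88 for the peaks left out. At these like folds, the median −log10 q of kept peaks was 16.3 in CPN 1 and 12.9 in CPN 2, lower in the longer list. Kept peaks were also wider, with a median of 361 bp in CPN 1 and 271 bp in CPN 2, against 175 bp and 130 bp. At the edge of the overlap rule, 299 CPN 1 peaks were inside it with 1 to 10 bp of overlap and had a median fold of 2.54. Just outside it, 99 CPN 1 peaks lay 0 to 9 bp from a CPN 2 peak and had a median fold of 2.59. Most CPN 1 peaks left out were not near misses, since 70.4% of them lay more than 1 kb from any CPN 2 peak.

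Within the set the libraries placed the regions alike. In 95020 regions (92.6%) a single CPN 1 peak met a single CPN 2 peak, and in 7342 regions 1 CPN 1 peak spanned several CPN 2 peaks. The summits of both libraries lay a median of 29 bp apart, and within 100 bp of each other in 85.5% of regions. The fold differed by under 1.5 times in 95.9% of regions and by under 2 times in 99.9%. Across regions, the Spearman correlation was 0.911 for the fold and 0.793 for the width. Regions share libraries and overlap was required, so these values describe agreement inside the set and carry no p-value. The width was the measure that differed between the libraries: the median region was 362 bp wide in CPN 1 and 282.5 bp in CPN 2, and 75% of regions were wider in CPN 1.

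**Figure D1:**
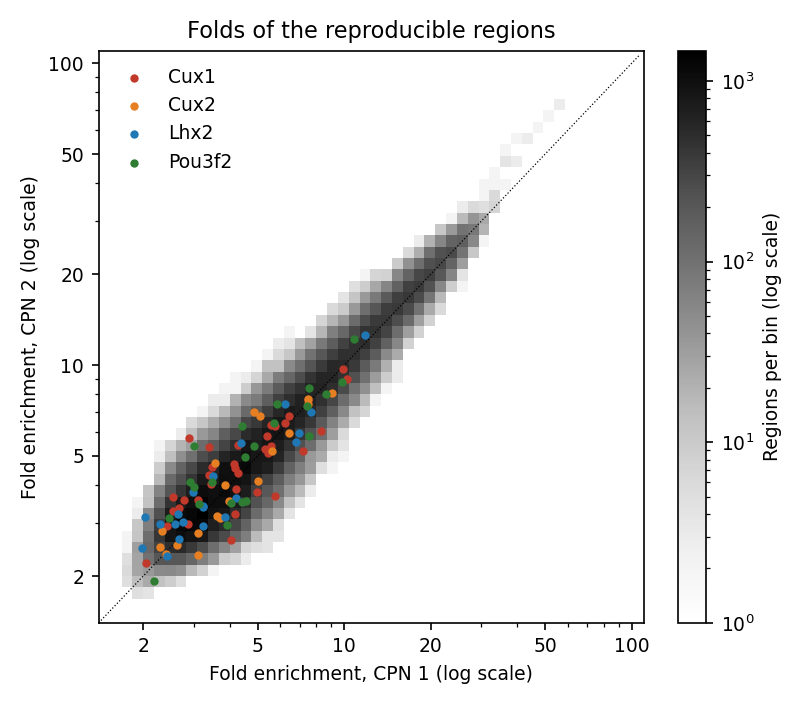
Fold enrichment at the summit in CPN 1 (x axis, log scale) against CPN 2 (y axis, log scale) for the 102644 reproducible regions, with shading for the number of regions per bin and coloured points for the regions nearest to Cux1, Cux2, Lhx2 and Pou3f2. The regions lie along the dotted line of equal fold, and the marker regions sit in the lower and middle part of the range, the highest being the Lhx2 region at 11.8 in CPN 1 and 12.6 in CPN 2.

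Callosal accessible regions lay mostly away from gene ends, while the strongest of them were mostly at gene ends. Each region was given to the nearest protein-coding gene body by the summit of its stronger peak. A gene end means within 1 kb of either end of a gene, since the gene table used holds no strand, exons or introns. A region was placed at a gene end by its summit. A gene was counted as having a gene-end region when any base of a region lay in that window. Such a region could be assigned to another gene, so 1 region could count for neighbours such as Hoxa5 and Hoxa6. Of the regions, 14972 (14.6%) were at a gene end and 46573 (45.4%) lay deeper inside a gene body. Outside genes, 8469 (8.25%) lay up to 10 kb away, 20311 (19.8%) from 10 to 100 kb and 12226 (11.9%) beyond 100 kb. A further 93 lay on sequences with no protein-coding gene of the table.

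Gene-end regions had a median fold of 11.1 in CPN 1 and 11.2 in CPN 2, and median widths of 843 and 688 bp. Regions inside gene bodies had median folds of 4.19 and 4.36 and widths of 330 and 257 bp, and regions beyond 100 kb had 4.51 and 4.53 with 325 and 252 bp. Over the interquartile range, gene-end folds ran from 5.54 to 17.2 in CPN 1 and from 5.70 to 17.3 in CPN 2. Gene-body folds ran from 3.15 to 6.23 and from 3.35 to 6.42. The middle ranges of both classes thus overlapped, although their medians lay apart in each library. When the set was cut into 10 equal parts by the lower fold of both libraries, the share at gene ends was 6.99% in the weakest part, 5.83% in the fifth and 63.4% in the strongest. Width followed the same order. Of regions up to 150 bp wide in the narrower library 4.65% were at a gene end, against 39.1% of those over 500 and up to 1000 bp and 70.4% of those over 1000 and up to 2000 bp.

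Around transcription starts the accessible summit sat just upstream. Listed starts with strand were at hand for 17492 of 21887 protein-coding genes (79.9%), 21263 starts in all and none on chromosome 18. Of the 98970 regions on chromosomes with listed starts, 12198 (12.3%) had their summit within 1 kb of one. Among these, the median summit lay 26 bp upstream of the start, 60.7% lay upstream and 58.6% lay within 100 bp. The fullest 50-bp bin was the one directly upstream of the start, with 2636 summits, followed by the one directly downstream with 1935.

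**Figure D2:**
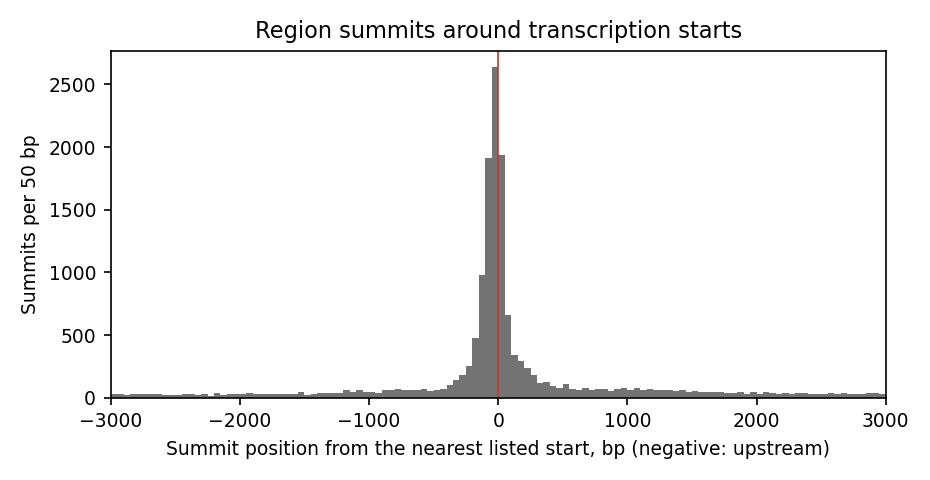
Number of region summits per 50 bp (y axis) by signed distance in bp from the nearest listed transcription start (x axis, negative upstream), with the start marked by a red line. The counts peak in the bin just upstream of the start at 2636 summits and fall off to both sides, with 981 summits between 100 and 150 bp upstream.

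A CSMN peak was present in 62913 of the 102644 callosal regions (61.3%, Wilson 95% interval 61.0 to 61.6, which covers counting error only). With 1 CSMN library there is no replicate on that side, and no test was made. A region with no CSMN peak cannot be called closed in CSMN, since the CSMN list was the shortest of the 3. The share followed the strength of the region in the callosal libraries. It was 26.2% in the weakest of the 10 parts, 52.3% in the fifth and 99.7% in the strongest. At gene ends 89.0% of regions had a CSMN peak (88.4 to 89.5), inside gene bodies 54.4% (54.0 to 54.9) and beyond 100 kb 59.6% (58.7 to 60.5). Gene-end regions also had the higher share at like callosal strength. In the weakest part it was 35.5% (32.1 to 39.1) at gene ends and 25.5% (24.6 to 26.4) elsewhere, and in the seventh 90.6% (88.6 to 92.3) and 73.2% (72.3 to 74.1). With both CPN lists shortened to the length of the CSMN list by −log10 p, 71.1% of the regions left had a CSMN peak.

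**Figure D3:**
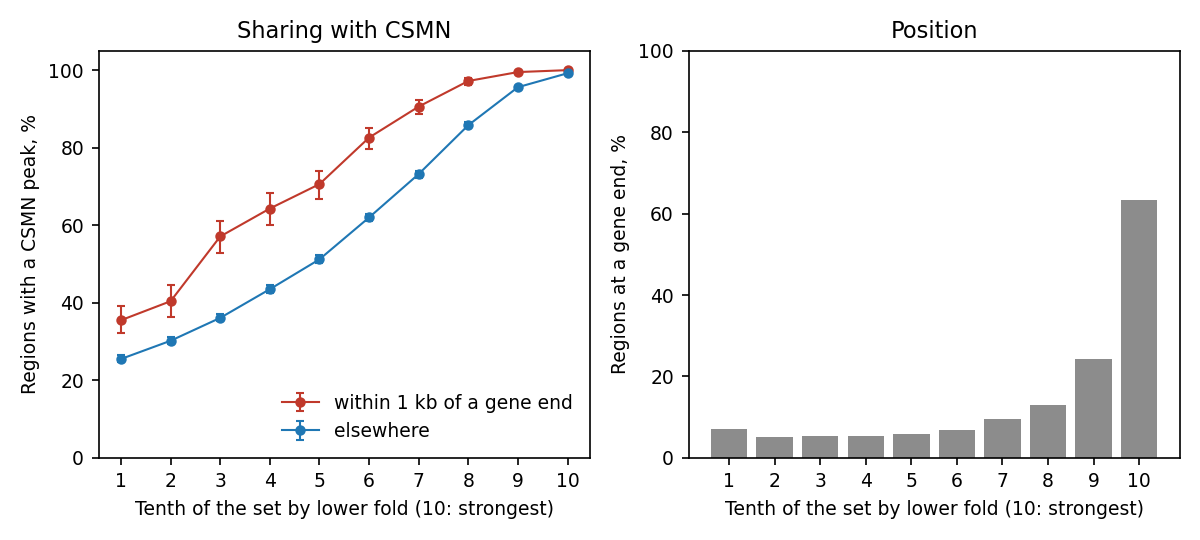
The 102644 regions in 10 equal parts by the lower fold of both callosal libraries (x axes, 10 the strongest): left, percent of regions with a CSMN peak at gene ends (red) and elsewhere (blue), with Wilson 95% intervals as bars; right, percent of regions at a gene end. Sharing rises with strength in both classes, from 35.5% and 25.5% in the weakest part, and the gene-end share reaches 63.4% in the strongest.

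Callosal regions were spread over all chromosomes and were sparser and stronger on the X. Autosomes held 100540 regions, or 4.87 per gene, from 2.89 on chromosome 7 to 7.01 on chromosome 18. The X chromosome held 1745 regions, or 1.81 per gene. X regions had higher folds, with medians of 6.13 in CPN 1 and 6.28 in CPN 2 against 4.63 and 4.79 on autosomes, and at gene ends 13.1 and 13.3 against 11 and 11.1. Of X regions 26.3% lay at a gene end and 70.9% had a CSMN peak, against 14.4% and 61.0% on autosomes. The sources used here do not give the number of X copies in the sorted cells, and its part in these values was not tested. The Y chromosome held 266 regions, 91.0% of them with a CSMN peak.

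Each of the 4 callosal markers had a region at a gene end and further regions around it, 97 in all. CSMN had a peak at the gene-end region over the start of each. Of all protein-coding genes 14693 of 21887 (67.1%) had a region at a gene end, so its presence at the markers does not set them apart. Nor does it check the callosal label against a corticospinal one: the label was neither borne out nor contradicted by these markers.

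Cux1, a cut-like homeodomain factor of upper-layer neurons, had 35 regions across its 319 kb gene (minus strand of chromosome 5) and its upstream flank. The region over the gene's start, chr5:136566034-136568182, had folds of 9.89 (CPN 1) and 9.68 (CPN 2) and was 2149 and 1912 bp wide. The strongest other region lay near the far end of the gene, 315 kb downstream of the start, at chr5:136252915-136253183. It was narrow, 269 and 179 bp, with folds of 10.2 and 8.99. A region 125 kb into the gene reached 8.30 and 6.04, and one at 210 kb reached 7.46 and 7.69. Of the 35 regions, 26 lay inside the gene more than 1 kb from its ends and 8 in the flank upstream of the start, the farthest of these 60.2 kb away, with folds of 3.46 and 4.6. CSMN had a peak in 16 of them, among them the start and the 315 kb region, and none at the 210 kb region.

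Cux2, its paralog and a marker of the same layers, had 19 regions, 16 of them deeper than 1 kb inside its 192 kb gene. The region at its outer start, chr5:122049711-122050689, had folds of 9.05 and 8.11. Regions 81.8 and 178 kb into the gene came next, with folds of 7.46 and 7.44 at the former and 7.51 and 7.72 at the latter. Upstream of the start, a region 9.12 kb away had folds of 4.87 and 6.98. CSMN had a peak in 8 of the 19. A further listed start inside the gene had no callosal region over its window, which held 4 CpGs against 48 at the outer one. Without CPN 1, the CPN 2 list alone gave 29 regions at Cux2, and the CPN 1 list alone gave 36.

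Lhx2, a LIM homeodomain factor, had 21 regions at and around its 30.5 kb gene. The region at the first start had folds of 6.83 and 5.55. The strongest region of the gene, chr2:38350502-38351496, lay over the second listed start, 11.8 kb downstream, with folds of 11.8 and 12.6 and widths of 995 and 822 bp. The flank beyond the gene's far end held 9 regions, with folds of 7.66 and 6.98 at 6387 bp from the gene, 6.22 and 7.41 at 25.6 kb and 6.96 and 5.97 at 55.0 kb. CSMN had a peak in 10 of the 21, including both starts and these 3 downstream regions. With peaks of −log10 q of at least 5 the count was 13.

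Pou3f2, a POU homeodomain factor also known as Brn2, is a short gene of 6.27 kb in a gene-poor stretch and had 22 regions. Of these, 12 lay beyond 100 kb, the farthest 1000 kb upstream of the start, so the count was 10 when regions beyond 100 kb were left unassigned. The region over the gene, chr4:22487621-22488970, had folds of 7.44 and 7.31. The highest folds were those of a region 76.3 kb upstream, chr4:22564471-22564982, at 10.9 and 12.2. Regions 348, 459 and 1000 kb upstream had folds of 8.63 and 8.01, 9.83 and 8.77, and 7.52 and 5.84. CSMN had a peak in 20 of the 22. The nearest gene by position need not be the gene a distant region acts on.

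**Figure D4:**
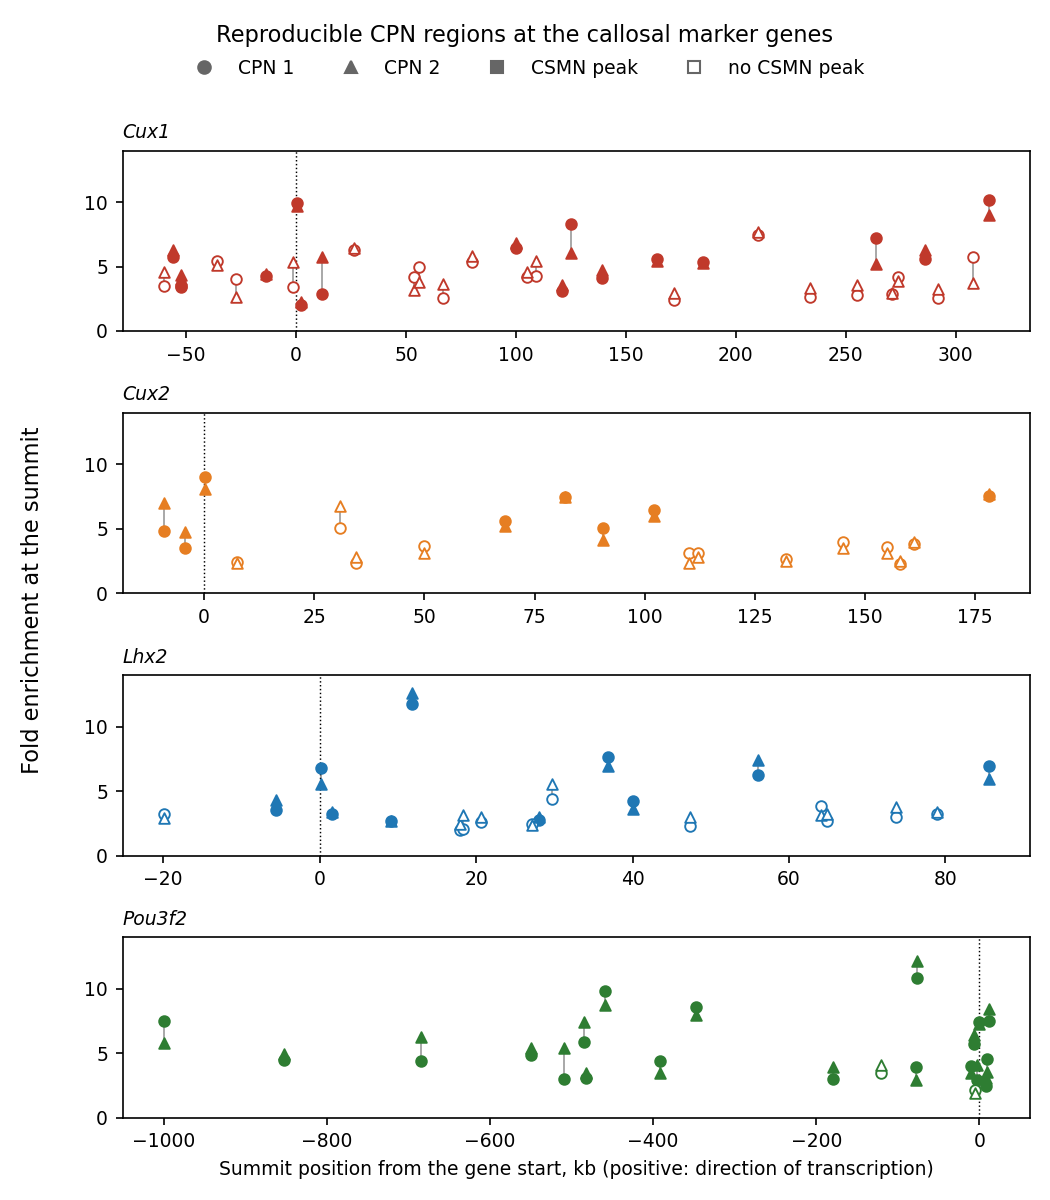
Fold enrichment at the summit (y axis) of every reproducible region nearest to Cux1, Cux2, Lhx2 and Pou3f2, by distance of the summit from the gene's start in kb (x axis, positive in the direction of transcription). Circles are CPN 1 and triangles CPN 2, joined by a line, filled where CSMN has a peak and open where it has none. The region at or near the start is among the highest for Cux1 and Cux2, the second start leads for Lhx2, and the region 76.3 kb upstream leads for Pou3f2.

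Of 12 upper-layer transcription factors, the markers included, 9 had a gene-end region, or 75% against 67.1% of all genes and 79.4% of genes of 30 to 100 kb, and 11 had one when listed starts were counted too, as 15324 of all genes did (70%). Their median number of regions was 21.5, against 2 over all protein-coding genes. Long genes collect more regions, with medians of 4 for genes of 30 to 100 kb and 11 for genes of 100 to 300 kb, and the median length of the list was 96.8 kb. Pou3f3 had 53 regions, of which 34 had a CSMN peak. Its strongest region lay 885 kb from its 4.44 kb gene, with folds of 11.8 and 13.8, above the 9.02 and 9.48 at its gene end. Mef2c, a MADS-box factor, had 52 regions and the highest fold of the list, 19.8 and 21.6, at chr13:83517971-83518806 inside the gene. A region with its summit 20.8 kb inside the gene lay over a listed start, with folds of 8.62 and 12.1. Cited2, a transcriptional co-regulator, had 41 regions, with 9.57 and 11.6 at its gene end and 12.1 and 12.9 at a region 520 kb away. Rfx3 had no region at its outer gene ends but one over a listed start inside the gene, with folds of 14.5 in both libraries.

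Effector genes of callosal neurons, which encode receptors, secreted factors and enzymes rather than regulators, had gene-end regions in 11 of 12 cases (91.7%), and in 12 of 12 with listed starts, against 67.1% and 70% of all genes. Their median length was 92.5 kb, and 79.4% of genes of 30 to 100 kb had a gene-end region. Inhba, a subunit of activins, was the gene added by its listed start, at which the folds were 11.1 and 11.5. Frmd4b had the most regions, 44, with 11.2 and 11.9 at its gene end. Epha3, a receptor for ephrins in axon guidance, had 35 regions and the strongest regions of these 4 named effector genes, which include Limch1 and Gfra2. Its folds were 20.9 and 24.2 at a region 7.05 kb inside the gene and 18.5 and 21.4 at the gene end. Limch1 had 35 regions and Gfra2, a receptor for neurturin, had 31. Over the list, 133 of 244 regions (54.5%) had a CSMN peak, against 61.3% of the whole set. This share does not set the callosal lists apart. It was 62.9% for the upper-layer transcription factors and 53.5% for the subcerebral genes described next. Over the 15 lists it ran from 29.7% for genes of other tissues to 69.9% for ribosomal protein genes.

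Genes that mark other projection neurons also had regions in the callosal libraries. Of 13 subcerebral genes 12 had a gene-end region (92.3%), and of 11 corticothalamic and subplate genes 11 did, against 67.1% of all genes. By gene length the shares were 79.4% for genes of 30 to 100 kb, where the subcerebral median of 93.7 kb lies, and 72.7% for genes of 10 to 30 kb, where the corticothalamic median of 17.2 kb lies. Fezf2, the subcerebral regulator in the title of the series and named here for that reason, had 2 regions, both at gene ends. Their folds were 5.99 and 6.68 for one and 3.54 and 3.35 for the other, both below the medians of 13.1 and 13.2 over all genes with a gene-end region. Sox5, a regulator of the order in which deep-layer neurons arise, had 59 regions, with 8.02 and 7.46 at its gene end. Ldb2 had 42 with 12.9 and 14.4, and Diaph3 had 39 with 24.3 and 24.5, the highest gene-end folds of the subcerebral list. Cdh13, a cadherin with a gene of 1185 kb, had 52 regions but none at a gene end, and its strongest reached 7.77 and 8.31. Tle4, a co-repressor used as a corticothalamic marker, had 58 regions and gene-end folds of 18.2 and 15.3. Foxp2 and Zfpm2 had 26 each and Hs3st4 had 18.

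Genes shared by excitatory neurons had gene-end regions in 14 of 15 cases (93.3%), against 67.1% of all genes and 79.4% of genes of 30 to 100 kb, their median length being 62.8 kb. Syt1, the calcium sensor of synaptic vesicle release, had folds of 23.9 and 26.4 there and 29 regions in all. Map2, a dendritic microtubule protein, had 12.5 and 14.6 at its gene end and 21 regions, and Grin2b, an NMDA receptor subunit, had 10.1 and 10.7 and 28 regions. Rbfox3, the gene of the neuronal nuclear protein NeuN, had 33 regions and gene-end folds of 3.02 and 4.54. Slc17a7, the vesicular glutamate transporter of these neurons, had none within 1 kb of a gene end. Its strongest region lay 1775 bp away with folds of 13.9 and 12.7, so it counted as a gene-end region under the wider window of 2 kb.

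Midline guidance genes direct callosal axons as they approach and cross the midline. Of 16 such genes 15 had a gene-end region (93.8%), against 67.1% of all genes and 82.8% of genes of 100 to 300 kb. With listed starts 16 did, the one added being Slit2 with folds of 6.48 and 6.93. The receptor Robo1 had 72 regions, the most of any gene in the 15 lists, and gene-end folds of 12.3 and 12.8. Robo2 had 37 regions with 12.5 and 12.4. The ligand Slit3 had 63 with 7.64 and 6.58, and the receptor Epha4 had 54 with 10.8 and 11.9. These are long genes, with a median length of 152 kb. Their median number of regions was 23, against 11 for genes of 100 to 300 kb and 24 for longer ones.

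Genes of other brain cell types also had callosal regions. Their median gene-end folds lay below the 13.1 and 13.2 over all genes with a gene-end region, as did those of each neuronal list. A gene-end region was present in 67.1% of all protein-coding genes. By length the share was 49.5% for genes up to 10 kb, 72.7% for 10 to 30 kb and 79.4% for 30 to 100 kb. Median lengths were 8.4 kb for the interneuron list and 7.31 kb for the progenitor list. They were 14.2 kb for astrocyte, 16.4 kb for oligodendrocyte lineage, 13.1 kb for microglia and 44.6 kb for endothelial and mural genes. Interneuron genes had a gene-end region in 13 of 15 cases (86.7%), at median folds of 7.30 and 5.84. Prox1 had 25 regions and Dlx2 had 17, with gene-end folds of 12.3 and 11.3 and of 7.62 and 5.05. Sst and Vip, the neuropeptide genes of interneuron classes, had none at a gene end, and their nearest strong regions lay 7045 bp from Sst at 9.71 and 10.5 and 4682 bp from Vip at 10.2 and 7.74. Astrocyte genes had one in 8 of 10, without Gfap and Aqp4, at median folds of 9.55 and 9.03. Oligodendrocyte lineage genes had one in 8 of 10, without Sox10 and Mog, at 5.43 and 5.4. Microglia genes had one in 6 of 10 cases, without Cx3cr1, Csf1r, Aif1 and C1qa, at median folds of 5.88 and 6.05. Endothelial and mural genes had one in 10 of 10 cases, yet at median folds of 5.14 and 4.92, the lowest of the brain cell lists, with the lower fold between 3.35 and 7.65. Cortical progenitor genes had one in 10 of 10, at 6.99 and 8.02. Among them Sox2, a factor of neural stem cells, had 71 regions, Gli3 had 46, Hes1 had 30 and Pax6 had 20. Whether other cells in the sort account for any of these regions was not tested.

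Of 20 genes of tissues outside the brain, 4 had a gene-end region (20%), against 67.1% of all genes and 49.5% of genes up to 10 kb, their median length being 7.16 kb. The median folds at those 4 were 12.7 and 11.3, above those of the neuronal lists. Of the 20 genes, 13 had any region assigned. Among the 16 without a gene-end region were Alb and Fgb of liver, Hbb-bt and Hba-a1 of red cells, Krt5 and Krt14 of skin and Cd3e of lymphocytes. The median number of regions was 1, and 11 of their 37 regions (29.7%) had a CSMN peak. Pax7, a muscle and hindbrain factor, had the most with 19, none at a gene end. Hox genes, which pattern the body axis and lie outside the cortical programme, had a gene-end region in 24 of 39 cases (61.5%), with median folds of 4.03 and 4.86. The share was 67.1% for all genes but 49.5% for genes up to 10 kb, where the Hox median length of 3.74 kb lies. Hoxc4 had the most regions, 7, followed by Hoxa3 and Hoxd3 with 6 each. Ribosomal protein genes, taken by their Rpl and Rps symbols with paralogs included, had a gene-end region in 78 of 83 cases (94.0%). Their median length was 3.2 kb, so the same 67.1% and 49.5% stand beside this share. Their median folds were 18.0 and 18.6, above those of the neuronal lists. The members without one were Rpl10l, Rpl17, Rpl32l, Rpl39l and Rps2. Rps24 had 48 regions with 18.3 and 20.6 at its gene end, and Rps29 had 29.2 and 30.8.

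**Figure D5:**
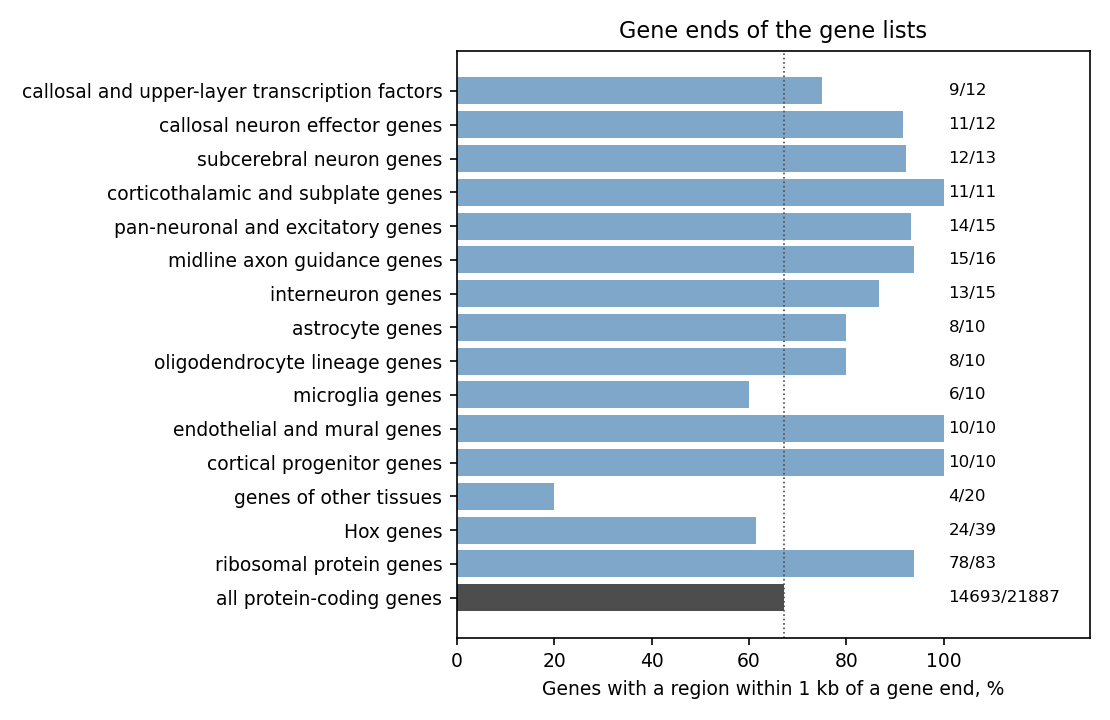
Percent of genes with a reproducible callosal region within 1 kb of a gene end (x axis) for 15 gene lists and for all protein-coding genes (dark bar, dotted line at 67.1%), with the number of genes with a region and in the list beside each bar. The microglia list (6 of 10), the Hox list (24 of 39) and the list of other tissues (4 of 20) lie below the line and the other lists above it. The line is not matched for gene length. For genes up to 10 kb, where the median lengths of the Hox list and of the list of other tissues lie, the share was 49.5%.

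Of the 10 genes with the most callosal regions, most were long or lay beside a stretch without other protein-coding genes. A region was assigned to 16791 genes (76.7%), with a median of 3 among those. The 1085 genes with 20 or more regions held 33.8% of assigned regions. Tenm4, a teneurin of synapse formation, had 118 regions, 88 of them inside its 740 kb gene, and Tenm2 had 100. Nav2 and Nfia had 102 each, Auts2 had 100, Zfp608 had 96, Adgrl2 had 86, Celf2 had 81 and Ptprn2 had 80. The regions of Zfp608 and Adgrl2 lay mostly in the surrounding stretch, and within 100 kb of the gene their counts were 31 and 34. Gm20830, a gene of 0.685 kb on the Y chromosome, collected 113 regions, 35 within 100 kb, and 108 of the 113 had a CSMN peak. The CPN 2 list without CPN 1 gave 185 regions at Tenm4, 137 at Adgrl2, 129 at Celf2 and 128 at Ptprn2, each more than 1.5 times the count in both libraries. With a −log10 q of at least 5, Tenm2 had 64.

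The strongest regions of the set were of a different kind from the strongest gene-end regions. The 10 strongest had lower folds from 47.3 to 67.8, had median widths of 353.5 bp in CPN 1 and 315 bp in CPN 2, below those of gene-end regions and close to those of the whole set, and 1 lay at a gene end. All 10 had a CSMN peak. The first, chr8:15519789-15520115, lay 373 kb from Csmd1 with folds of 67.8 and 90.5 and a CSMN fold of 52.0. Others lay inside Gphn, Chl1, Zc3h7a and Filip1l, and at a gene end of Lars2, with 57.7 and 71.9. One, nearest to Gm15319, overlapped 2 pseudogenes. The others were nearest to Samd9l, Tra2a and Rab10. Among the 1000 strongest regions 827 lay at a gene end. Gene-end regions below Lars2 led with the histone gene H4c18 at 40.6 and 44.3, then Gm14326 at 39.3 and 47.2, Zfp960 at 35.4 and 38.2 and Gm2237 at 35.3 and 39.2. Zfp959, Bbs12, Herc2, Gm5165 and Gm51425 completed the 10. Genes of near-identical copies are uncertain here, since the sources used here do not say how reads that map to several places were treated. No filter for sites of artefact signal was applied to the peak lists here. Whether the strongest regions are such sites was not tested.

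The 3 widest regions were of another kind again. Of these, 2 lay on the mitochondrial genome, 6375 and 5152 bp wide in the narrower library, and 1 on chromosome 17 overlapped the ribosomal RNA pseudogene Rn18s-rs5 at 4243 bp. Their folds were between 2.31 and 3.52. The next lay at Fat3, a large cadherin, with 2942 bp and folds of 9.23 and 9.26, at Rims2, a presynaptic scaffold, with 2714 bp, and inside Cpeb2 with 2588 bp. Sp3 and Chst2 followed at gene ends with 2362 and 2335 bp, and Tent5a came later with 2308 bp. Of the 100 widest regions 67 lay at a gene end and 100 had a CSMN peak.

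The sequence of the promoter window set starts with a callosal region apart from those without. Of the 21263 listed starts, 13468 (63.3%) had a region over the window. Those windows held a median of 21 CpGs and 61.7% G and C, against 3 CpGs and 46.7% for the 7795 windows without a region. The share with a region was 5.68% for windows with 0 to 2 CpGs, 34.0% for 3 to 9, 89.5% for 10 to 19, 97.1% for 20 to 29 and 98.6% for 30 or more. Above 10 CpGs the fold no longer followed this number, with median lower folds of 13, 14.8 and 13.4 in the upper 3 classes.

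Short motifs were searched as exact letters on both strands of the window, as a description of letters and not of binding. The GC box GGGCGG was in 66.4% of windows with a region, 11.4% of those without and 46.2% of all. The ETS-type motif CCGGAAG was in 16.8%, 2.57% and 11.6%, and the cAMP response element TGACGTCA in 3.16%, 0.641% and 2.23%. The TATA box TATAAA went the other way, with 6.24%, 23.6% and 12.6%, as did the homeodomain motif TAATTA with 2.32%, 8.35% and 4.53%. The CCAAT box, spelled CCAAT, was nearly level at 37.4%, 39.5% and 38.2%. It separated starts by strength instead. When the 13468 starts were cut into 3 equal groups by lower fold, CCAAT was in 28.5% of the lowest and 49.3% of the highest, and CCGGAAG in 6.84% and 26.4%. GGGCGG and CCGGAAG each hold a CpG, as does the cAMP response element. The part of the CpG number in the shares of these motifs was not tested. Windows with a region also had a higher median GC content, 61.7% against 46.7%. The TATA box and the homeodomain motif hold neither base, and the part of GC content in their shares was not tested. In the promoters printed above, GGGCGG was found in the windows of all 5 upper-layer genes and CCAAT in those of Pou3f2, Pou3f3 and Rorb, while the Alb window held CCAAT and no GGGCGG. The Cited2 window, not printed, held GGGCGG and no CCAAT.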

How the data were processed

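ATAC-seq peak lists of 2 CPN libraries and 1 CSMN library from sorted mouse brain cells were used. Per the submitters' processing notes, MACS2 2.2.7.1, BWA 0.7.17 and bedtools 2.29.2 were used with the build mm10, with no role given for each. The sources used here do not give read filters, a shift for the transposase or read totals. Each list names a single library in its peaks and was taken as called per library. The deposited lists give for each peak the authors' fold enrichment at the summit, −log10 p, −log10 q and a score that repeats the −log10 q.

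Overlaps, regions and distances were computed with Python 3.11.15, numpy 2.4.6, pandas 2.3.3 and scipy 1.17.1 and plotted with matplotlib 3.10.9. They were tested on simulated intervals and checked against bedtools 2.31.1, with 0 differences. A region's value in a library is its strongest peak there, and ranks over the set used the lower of both libraries. Gene bodies and promoter windows came from RefSeq (GRCm38.p6). The listed starts hold none on chromosome 18. All comparisons are descriptions with no test. The genes named were the 4 markers, the 4 members of each list with the most regions, members of neuronal lists without a gene-end region, the 10 genes with the most regions, and the 10 strongest, 10 widest and 10 strongest gene-end regions. A few others are named for contrast, after their values were seen. Some genes that this rule would name are not reported here. The members and the lists were chosen with earlier results of these data known. Alternatives changed the overlap, the −log10 q, the list length, the gene-end window, the distance limit and the libraries used.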

Additional observations from a re-analysis of the deposited data

How the results depend on the processing

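Each library left out in turn removes the overlap rule, so these settings hold 1 list as called: the number of regions was then 134018 to 158779 (102644 in both), the share at gene ends 11.9% to 12.3% (14.6%), the share with a CSMN peak 45.5% to 50.5% (61.3%) and the median CPN width 203 to 293 bp (362 bp in CPN 1). The share at gene ends was 16.0% with an overlap of 50% of both peaks, 17.2% with a −log10 q of at least 5, 15.1% with CPN lists of equal length and 18.6% with a window of 2 kb. The share with a CSMN peak was 56.6% with a −log10 q of at least 5, a cut made in the CSMN list as well as the CPN lists. It was 71.1% with CPN lists cut to the length of the CSMN list. The median CPN 1 width was 427 bp with a −log10 q of at least 5. Beyond what each setting removes, the cause of these moves was not tested. The number of genes with a gene-end region (14693) stayed within 1.5 times under every setting run, from 13223 with summits within 100 bp to 15613 with a window of 2 kb, as did the number of genes with a region (16229 to 17645). The Spearman correlation of the folds was 0.911 to 0.923. Of the counts at 14 named genes, 9 stayed within 1.5 times without CPN replicate 1, 13 without replicate 2, 12 at the stricter −log10 q and 10 with the limit of 100 kb. Folds by position, gene lists, chromosomes and motifs were not recomputed under these settings. Settings beyond those planned (the listed starts, chromosomes 1 to 19 and X alone, and further uses of the overlap and length settings) were chosen after seeing the data. No paired analysis was possible because the CPN and CSMN libraries share a single replicate number and no test was made. The sources used here give no depth, so a missing peak in a library was not read as closed chromatin.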

Other observations

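Families with many copies differed in how many of their gene ends were accessible in callosal neurons. These families were chosen after their values were seen. Of 1110 olfactory receptor genes (Olfr symbols), 15 had a callosal region at a gene end (1.35%) and 86 had any region assigned. Of 353 vomeronasal receptor genes (Vmn symbols), 2 had one (0.567%). Without both families, 71.9% of the remaining 20424 protein-coding genes had a gene-end region, against 67.1% of all. Zinc-finger genes with a Zfp symbol had one in 330 of 397 cases (83.1%), with median folds of 16.7 in CPN 1 and 15.9 in CPN 2, against 13.1 and 13.2 over all genes with a gene-end region.

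Callosal regions also came in close groups. When regions less than 5 kb apart were joined, 51% lay in a group of 2 or more and 24 groups held 10 or more. A group of 17 regions over 27.0 kb lay at Cntfr, the gene of the receptor for ciliary neurotrophic factor, and CSMN had a peak in 12 of them. A group of 16 regions over 27.4 kb at Zfp970 on chromosome 2 had a CSMN peak in 1, and a neighbouring group of 15 there in 2. Groups of 15 and 16 regions at Speer4d and Gm21149 on chromosome 5 had one in 15 and in 16. The treatment of reads from repeated copies was not given in the sources used here.

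Far from genes, 1552 callosal regions lay more than 500 kb from any protein-coding gene body and 322 more than 1 Mb. Beside Zfp608 and Adgrl2, the genes with the most regions beyond 100 kb on autosomes or the X were Tbl1xr1 with 47, Efnb2, a ligand of Eph receptors, with 45, the transcription factor gene Sox4 with 43, Mn1 with 42, Map3k7 with 41 and Myc with 40. Sox4 and Myc are short, at 4.78 and 5.02 kb, and had 63 and 52 regions in all.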
